A study of Mus musculus with 13 samples.

Results

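Transcripts of Polycomb repressive complex 2 (PRC2) were examined in male mouse germ cells of 4 Tet1 genotypes. The members were taken by name and by no measured value: Ezh2, Ezh1, Eed, Suz12, Rbbp4, Rbbp7, Jarid2, Aebp2, Mtf2 and Phf19. All 10 were found among the 35976 gene symbols of the count table, and all 10 were among the 14702 genes that passed the expression filter and were tested. Transcripts of every member were detected in every library, 7 at higher and 3 at lower levels per length, and edgeR called 0 of the 10 members in any comparison. Most members varied by less than 2-fold between the lowest and the highest of 12 libraries, with Aebp2 (2.01-fold) and Phf19 (3.79-fold) outside that span.

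PRC2 places methyl groups on lysine 27 of histone H3, the mark of developmental genes held silent. Its catalytic subunit is EZH2 or EZH1, and either works only in a core with EED and SUZ12, while RBBP4 or RBBP7 binds the histone. MTF2 or PHF19 defines the form known as PRC2.1, and JARID2 with AEBP2 the form known as PRC2.2. In primordial germ cells, from which sperm and eggs descend, PRC2 acts while DNA methylation is being erased. TET1 oxidises 5-methylcytosine at CpG sites, and in pluripotent cells it is known to occupy many of the CpG-rich promoters that PRC2 also binds.

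The cells were male primordial germ cells from mouse embryos at E14.5, sorted by an Oct4-GFP reporter that all groups carried, and RNA came from 5000 cells. WT carried unaltered Tet1 and KO a Tet1 knockout. The labels give HxD and V by name alone. HxD is known as a Tet1 allele for a catalytically inactive protein, and V as an allele whose protein oxidises 5-methylcytosine to 5-hydroxymethylcytosine and stops there. Each genotype had 3 libraries. The labels state neither strain, zygosity nor whether embryos were pooled, and nothing says that replicates came from separate animals. The p-values therefore rest on differences among libraries that could be technical.

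Because TET1 acts on CpG sites, the CpG content of the members' promoters was read from the RefSeq promoter table (GRCm38.p6). All 10 members matched, with 14 start sites, and the 250 bases upstream of each were scored. These windows held 1 to 37 CpG sites with a median of 22.5, against a median of 6 over all 32851 windows of the same length, and 11 of the 14 lay above that median. Printed here as examples are 4 windows that overlap no annotated exon, all with more CpG sites than the median of all windows. Jarid2, Aebp2 and Mtf2 also have windows free of annotated exons, which are not printed. They are those of Ezh1 (chr11:101226464-101226713, minus strand), with 14 CpG sites, Suz12 (chr11:79992856-79993105, plus strand) with 37, Rbbp4 (chr4:129335371-129335620, minus strand) with 30, and Rbbp7 (chrX:162760122-162760371, plus strand) with 34. Sequences run 5′ to 3′ on the gene's strand, with CpG sites in capitals.
Ezh1: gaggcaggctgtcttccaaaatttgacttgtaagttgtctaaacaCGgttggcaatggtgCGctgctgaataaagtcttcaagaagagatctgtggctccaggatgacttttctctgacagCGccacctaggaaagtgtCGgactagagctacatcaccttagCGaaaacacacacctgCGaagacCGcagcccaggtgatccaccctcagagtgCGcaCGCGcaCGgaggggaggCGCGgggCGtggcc
Suz12: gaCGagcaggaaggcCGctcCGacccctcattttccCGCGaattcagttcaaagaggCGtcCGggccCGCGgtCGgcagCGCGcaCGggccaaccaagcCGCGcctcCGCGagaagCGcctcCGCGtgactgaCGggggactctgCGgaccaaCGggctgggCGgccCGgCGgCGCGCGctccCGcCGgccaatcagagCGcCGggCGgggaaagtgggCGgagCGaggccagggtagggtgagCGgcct
Rbbp4: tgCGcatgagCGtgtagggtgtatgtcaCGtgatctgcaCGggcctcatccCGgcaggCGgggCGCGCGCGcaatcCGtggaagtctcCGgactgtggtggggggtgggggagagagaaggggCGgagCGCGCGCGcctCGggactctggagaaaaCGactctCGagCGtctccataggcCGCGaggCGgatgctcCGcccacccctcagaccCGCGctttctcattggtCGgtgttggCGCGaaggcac
Rbbp7: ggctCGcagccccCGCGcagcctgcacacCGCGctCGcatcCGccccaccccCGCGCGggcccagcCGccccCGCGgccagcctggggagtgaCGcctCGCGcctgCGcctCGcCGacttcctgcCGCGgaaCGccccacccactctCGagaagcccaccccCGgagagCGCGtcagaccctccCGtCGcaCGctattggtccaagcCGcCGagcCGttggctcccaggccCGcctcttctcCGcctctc
The windows were also searched on both strands for TTCCCGC and TTGGCGC, letters typical of binding motifs of E2F factors, which drive proliferation genes. Of all windows, 5.62% held one or the other (3.82% the former and 1.97% the latter), and of the 14 member windows 3 did, those of Suz12, Rbbp4 and Phf19. Both motifs hold a CpG site, the member windows had a higher median of such sites, and no background matched for CpG content was formed. The Rbbp4 match lay 15 bases from the start site, the Phf19 match 208 and the Suz12 match 218. A match is a description of the letters and no evidence of binding, and no binding or methylation was measured in these libraries.

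Library totals ran from 13584484 counts (V 3) to 29641963 (HxD 1). WT 3 had the fewest genes with a count, 11529, and V 2 the most, 15715. Tet1 averaged 213 ± 11.8 CPM (counts scaled by library total with TMM factors; SD, n = 3) in KO against 608 ± 27.03 in WT, a log2 fold change of −1.51 (SE 0.17, adjusted p = 1.41e-05 by edgeR). In HxD it averaged 626 ± 101 CPM and in V 480 ± 133. Neither passed the test (adjusted p = 1 and 0.821 by edgeR), and the library labels and the Tet1 level were not at odds in KO. Of 12 germ cell markers, 11 or 12 had counts in every library, and their summed level was 5076 to 5211 CPM in WT, 3960 to 4226 in KO, 3878 to 4721 in HxD and 4301 to 4684 in V. The sum rests in large part on Dazl, which had the highest median of these markers and ran from 576.2 to 1906 CPM over the libraries. Whether the sum follows the share of germ cells was not tested. Markers of other gonadal cells were low. The Sertoli list summed to 148 to 319.6 CPM in 11 libraries, most of it Dmrt1 (128.3 to 225.3), which germ cells also express, and Sox9 had no count in 8 libraries. V 2 stood apart with a Sertoli sum of 482.2 CPM, of which Amh, a Sertoli hormone, made 216 (1.538 to 59.59 in the others). Without V 2, edgeR likewise called 0 members in V against WT, and the part of the Sertoli markers in the V values was not tested. The endothelial list summed to 140.6 to 296.3 CPM, most of it Pecam1, also a germ cell gene, with Emcn at 0 in all 12. Leydig, interstitial, macrophage, erythroid and granulosa lists each stayed at or below 30.08 CPM, and Lhcgr and Hba-a2 had no count in any library.

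Transcript levels of the members fell into an abundant and a scarce tier. CPM was divided by the length of all annotated exons of each gene, in kilobases, so that genes could be compared. Rbbp7, a histone-binding subunit, stood highest at a mean of 123.2 CPM per kb, and its lowest library (87.77) exceeded the highest of any other member. Suz12 (65.48), Rbbp4 (62.07) and Mtf2 (58.72) followed, and their library values overlapped. Jarid2 (41.76), Ezh2 (32.97) and Eed (32.07) came next, each overlapping its neighbour in the order. A gap separated these from the scarce members: the lowest Eed library stood at 25.17 CPM per kb and the highest Phf19 library at 17.74. Phf19 (11.56), Aebp2 (8.921) and Ezh1 (8.122) overlapped among themselves. They were scarce relative to the other members only: by mean CPM, without length, they stood at percentiles 70.4, 78.6 and 71.1 of the genes tested.

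The order within the abundant tier depended on the transcript length chosen, whereas the gap below it did not. With the longest coding transcript as the length, Rbbp7 averaged 159.7 and Rbbp4 123.2 CPM per kb, and their libraries then overlapped (113.8 to 215.7 and 105.8 to 139.2). Ezh2 moved up to 79.01, above Suz12 at 74.05. The lowest Eed library (46.62) still lay above the highest Phf19 library (23.9). Within pairs that can fill the same place in the complex, Ezh2 was 4.06 times Ezh1 per kb of exon and 5.5 times by the longest transcript. Mtf2 was 5.08 or 5.29 times Phf19, and Rbbp7 1.98 or 1.3 times Rbbp4. Jarid2, which acts together with Aebp2, stood at 4.68 or 4.56 times its level. Some reads cannot be assigned to a strand, since the strand setting is not given in the sources used here: exons of Rbbp4 share 796 bases with Gm26722 and 782 with Sync on the opposite strand, those of Mtf2 395 with Tmed5, those of Eed 261 with E230029C05Rik, and those of Suz12, Ezh2 and Rbbp7 178, 174 and 174 with Gm26563, Gm26625 and Txlng. In the same annotation, Ezh1, Jarid2, Aebp2 and Phf19 share none.

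**Figure D1:**
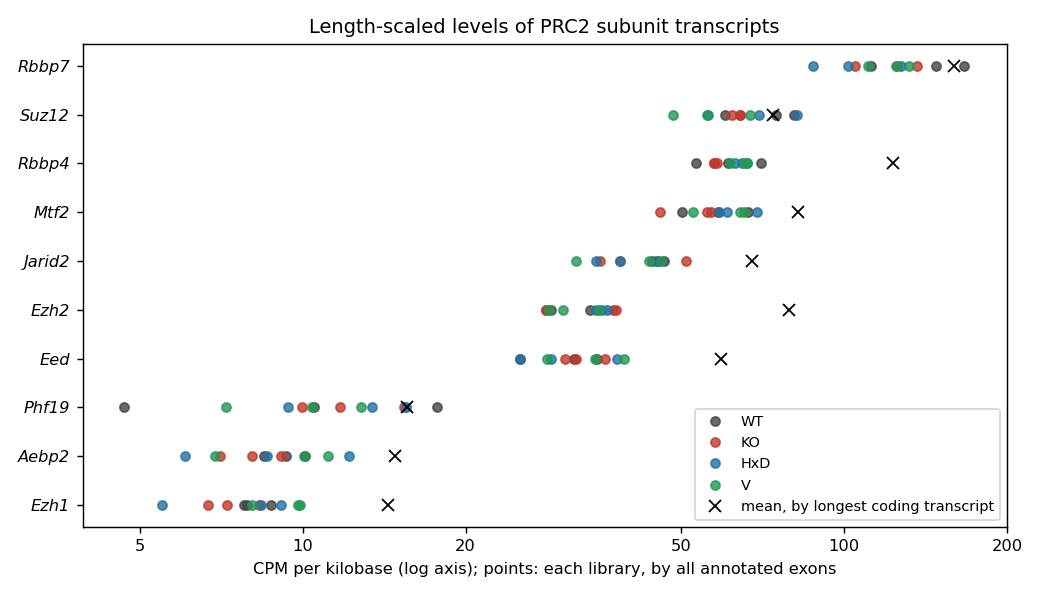
Length-scaled transcript level of each member (CPM per kilobase of annotated exon, log axis), 1 point per library coloured by genotype, with a cross for the mean by the longest coding transcript. Rbbp7 lies highest at 87.77 to 166.4 CPM per kb of exon, and a gap between 17.74 and 25.17 separates Phf19, Aebp2 and Ezh1 from the other 7 members.

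Between the catalytic subunits, Ezh2 was slightly higher and Ezh1 slightly lower on average in KO and HxD than in WT, with neither difference past the test. Ezh2 (chr6:47530139-47595341, minus strand in GENCODE M21, GRCm38), the main methyltransferase of dividing cells, read 192, 227 and 188 CPM in WT replicates 1 to 3, 254, 188 and 250.4 in KO, 244, 233 and 238 in HxD, and 190.2, 236 and 202 in V. The 3 HxD libraries were tightly grouped and all lay above the 3 WT libraries, while KO and V overlapped WT. The log2 fold change against WT was 0.19 (SE 0.17) in KO, 0.24 (SE 0.17) in HxD and 0.05 (SE 0.17) in V, with edgeR adjusted p = 0.896, 0.723 and 1. Of all genes tested, 5.26% were higher in all 3 HxD libraries than in all 3 WT libraries, so 1 member of 10 with that pattern is close to the background. In bulk samples of this kind, a different share of cells of a type and a different RNA level per cell cannot be told apart.

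Ezh1 (chr11:101191115-101226463, minus strand), the weaker methyltransferase that prevails in resting cells, read 65.1, 58.8 and 58.1 CPM in WT, 61.9, 54.0 and 49.8 in KO, 62.3, 40.9 and 67.9 in HxD, and 73.0, 59.9 and 73.5 in V. HxD 2 was the lowest of the 12 libraries, and every mutant group overlapped WT. The log2 fold changes were −0.135 in KO (SE 0.26), −0.09 in HxD (SE 0.26) and 0.18 in V (SE 0.26), each with an adjusted p of 1 by edgeR. Without HxD replicate 2 the HxD value was 0.10, with the opposite sign.

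The core partners Eed and Suz12 overlapped WT in every mutant group. Suz12 (chr11:79993106-80034123, plus strand), the scaffold on which accessory subunits dock, read 299, 399 and 369.8 CPM in WT, 307, 318.5 and 318 in KO, 344, 406 and 277 in HxD, and 239, 332 and 277 in V. V had the lowest mean, 283 ± 46.6 CPM against 356 ± 51.8 in WT (SD, n = 3), but V 2 lay within the WT range. The log2 fold change in V was −0.33 (SE 0.17, 95% interval −0.68 to 0.02), with an unadjusted p of 0.0612 and an adjusted p of 0.831 by edgeR. In KO it was −0.18 (SE 0.17) and in HxD −0.06 (SE 0.17). Eed (chr7:89954654-89980983, minus strand), which reads the finished mark and stimulates the enzyme, averaged 117 ± 19.04 CPM in WT, 126 ± 11.2 in KO, 117 ± 25.5 in HxD and 130.4 ± 21.2 in V. All 4 groups overlapped, with 96.4 CPM as the lowest value in both WT and HxD. Its log2 fold changes were 0.10, 0.0035 and 0.15 (SE 0.20 each), with an adjusted p of 1 by edgeR in all 3.

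Rbbp7 gave the smallest p of any member. Rbbp7 (chrX:162760402-162779092, plus strand) and Rbbp4 encode closely related histone chaperones that PRC2 shares with the NuRD, SIN3 and CAF-1 complexes. How reads that fit both genes, or a pseudogene copy, were counted is not stated, so their separate levels carry that uncertainty. Rbbp7 read 484, 431 and 326 CPM in WT, 305, 398 and 365 in KO, 371, 255 and 296 in HxD, and 322, 362 and 384 in V. WT 1 and WT 2 were the highest of the 12 libraries, and WT 3 lay within the range of every mutant group. In HxD the mean was 307 ± 58.8 CPM against 414 ± 80.3 in WT, a log2 fold change of −0.43 (SE 0.17, 95% interval −0.78 to −0.07). The unadjusted p of 0.0196 did not pass adjustment over all genes (adjusted p = 0.548 by edgeR). KO and V both stood at −0.22 (SE 0.17), with adjusted p = 0.84 and 0.951 by edgeR. Over 14 other settings the HxD value ran from −0.59 to −0.30, with a smallest adjusted p of 0.226 by the tool of that setting. The germ cell marker sum was also lower in HxD than in WT, as given above, and its part in this value was not tested.

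Rbbp4 (chr4:129307100-129335370, minus strand) was the steadiest member, with a coefficient of variation of 7.65% over 12 libraries. It read 466, 613 and 535 CPM in WT, 503, 504 and 510.0 in KO, 551, 578 and 566 in HxD, and 538, 578 and 571 in V. Mutant libraries lay close together inside the wider WT range. Log2 fold changes against WT were −0.09, 0.07 and 0.06 for KO, HxD and V (SE 0.15 each). The adjusted p-values by edgeR were 0.999, 0.993 and 1.

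The PRC2.2 subunits overlapped WT in every mutant group. Jarid2 (chr13:44729474-44921643, plus strand), a catalytically dead demethylase relative that helps recruit the complex, was even in WT at 452, 441 and 429 CPM. It spread further in the mutants, from 344 to 497 in KO, 339 to 437 in HxD and 310.3 to 446 in V. Its log2 fold changes were −0.12, −0.20 and −0.16 (SE 0.17 each), negative in all 3 mutants, which share the WT libraries. The adjusted p-values by edgeR were 0.99, 0.823 and 1. Aebp2 (chr6:140622663-140678472, plus strand), a zinc finger cofactor, averaged 91.6 ± 7.93 CPM in WT, 79.6 ± 10.4 in KO, 88.2 ± 30.2 in HxD and 92.2 ± 21.7 in V. HxD held both the lowest (59.8 in HxD 3) and the highest (120.0 in HxD 2) of the 12 libraries. Its log2 fold changes were −0.20, −0.05 and 0.01 (SE 0.24 each), with adjusted p = 0.978, 1 and 1 by edgeR.

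Of the PRC2.1 subunits, Mtf2 was abundant and even, and Phf19 scarce and uneven. Mtf2 (chr5:108065674-108109004, plus strand), a Polycomb-like protein that binds unmethylated CpG-rich DNA, averaged 333 ± 46.3 CPM in WT, 301 ± 35.0 in KO, 359 ± 31.4 in HxD and 346 ± 40.1 in V. Its log2 fold changes were −0.14, 0.11 and 0.06 (SE 0.16 each), with adjusted p = 0.967, 0.968 and 1 by edgeR. Phf19 (chr2:34893757-34914026, minus strand), its relative, read 52.9, 89.4 and 23.6 CPM in WT, 77.4, 50.3 and 59.0 in KO, 67.7, 47.4 and 78.2 in HxD, and 36.3, 52.5 and 64.5 in V. The lowest and the highest of the 12 values were both WT libraries. Its log2 fold changes of 0.17, 0.22 and −0.11 (SE 0.34 each) had adjusted p = 1, 0.969 and 1 by edgeR. WT 3, the library with the fewest genes detected, set the sign in 2 of them: without it the KO value was −0.195 and the HxD value −0.145. Without WT 2, the values were 0.70 in KO, 0.75 in HxD and 0.42 in V.

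**Figure D2:**
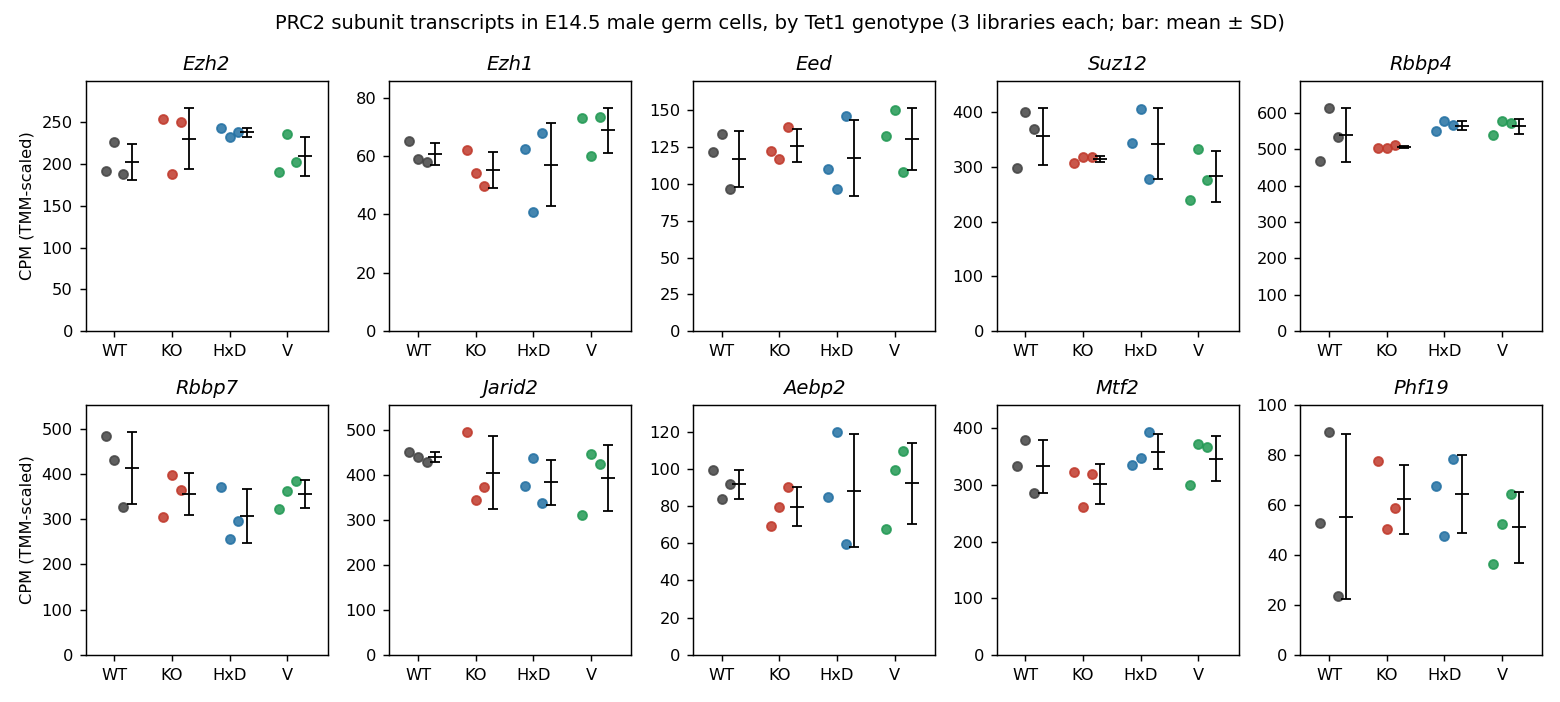
Transcript level of each member in TMM-scaled CPM, with 1 point per library, 3 libraries per genotype, and a bar for the mean ± SD; every vertical axis starts at 0. The mutant groups overlap WT in every panel except HxD for Ezh2, and the widest spread relative to its mean is within WT for Phf19 (23.6 to 89.4 CPM).

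Set against all genes, the members were called no more often than the background. At an adjusted p under 0.05 by edgeR, the shares of all genes were so low that 0 of 10 was the likely outcome. In KO against WT edgeR called 0 of 10 members at an adjusted p under 0.05, and 0.218% of all genes tested (32 genes). In HxD against WT it called 0 of 10, with 0.034% of all genes (5), and in V against WT 0 of 10, with 0% (0 genes). DESeq2 called 212, 213 and 84 genes in these comparisons and limma voom 124, 3 and 9, in each case 0 members. At an unadjusted p under 0.05, edgeR counted 0 members in KO (8.3% of all genes), 1 in HxD (8.24%), namely Rbbp7, and 0 in V (6.05%, or 890 genes). The test of any difference among the 4 genotypes called 0 members, with 0.0748% of all genes (11), and counted 0 members at an unadjusted p under 0.05 (6.28% of all genes). DESeq2 called 111 genes and limma voom 37 in this test, with 0 members in each. The groups did not overlap for 0 members in KO against WT (16.3% of all genes), 1 in HxD against WT (12.5%), which was Ezh2, and 0 in V against WT (11.8%). In the test of any difference, the smallest member p was 0.131 for Rbbp7 (adjusted p = 0.871 by edgeR).

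The members' fold changes were small. The median log2 fold change of the 10 members stood at −0.128 for KO, −0.0252 for HxD and 0.0293 for V, beside 0.00257, −0.0209 and 0.0131 over all genes. The estimate was positive for 3, 5 and 6 members and negative for 7, 5 and 4. The median absolute log2 fold change was 0.16, 0.10 and 0.14 for the members, and 0.40, 0.39 and 0.38 for all genes tested. The members stood at percentiles 70.4 (Phf19) to 98.6 (Rbbp4) of mean CPM among these. Their median SE was 0.173 in each comparison, beside 0.509, 0.501 and 0.511 for all genes. No set matched by level was formed for the fold changes. The biological coefficient of variation had a median of 0.166 for the members, 0.443 for all genes tested and 0.2 for the 4846 genes averaging at least 50 CPM.

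A p that misses the threshold does not show equal expression, so the 95% intervals of the edgeR estimates were used to bound the differences. Over the 3 comparisons with WT, the widest change that the intervals allowed in either direction was 1.31-fold for Rbbp4, 1.39-fold for Mtf2, 1.46-fold for Jarid2, 1.48-fold for Eed, 1.5-fold for Ezh2 and 1.6-fold for Suz12. It was 1.62-fold for Aebp2, 1.63-fold for Ezh1, 1.72-fold for Rbbp7 and 1.88-fold for Phf19. The interval that excluded 0 was that of Rbbp7 in HxD, and those of the other 29 tests against WT did not. The summed level of the 10 members was 2608 ± 229.5 CPM in WT, 2436 ± 107.8 in KO, 2522 ± 53.43 in HxD and 2493 ± 250.6 in V (SD, n = 3), differences within the spread of the WT libraries.

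**Figure D3:**
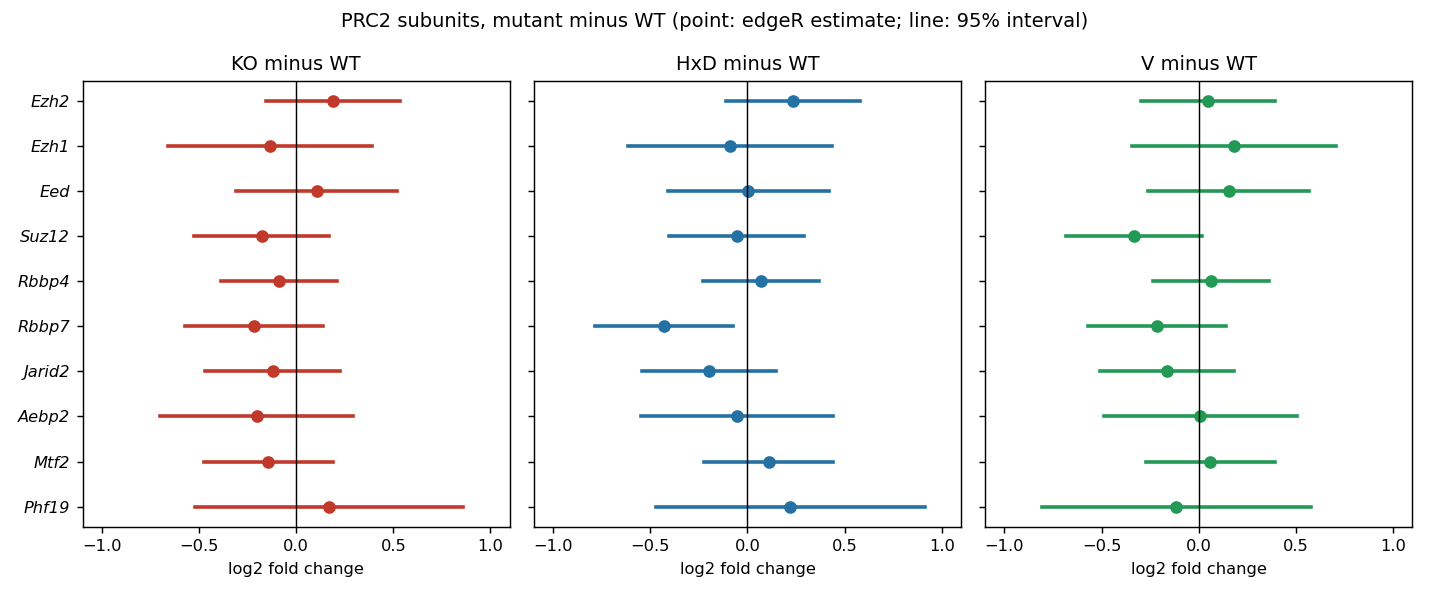
Log2 fold change of each member in KO, HxD and V against WT, which share the same 3 WT libraries; points are edgeR estimates and lines 95% intervals. The interval of Rbbp7 in HxD (−0.78 to −0.07) lies below 0, and the other 29 cross it.

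Between mutants, KO had the lowest means of Rbbp4 and Mtf2. All 3 KO libraries of Rbbp4 (503, 504 and 510.0 CPM) were below all HxD libraries (551 to 578) and all V libraries (538 to 578). For Mtf2, KO ran from 261 to 323 CPM and HxD from 335 to 394. The log2 fold change of KO against HxD was −0.16 (SE 0.15) for Rbbp4 and −0.25 (SE 0.16) for Mtf2, with adjusted p = 1 and 0.909 by edgeR. Groups in that direction did not overlap for 3.69% of all genes tested in KO against HxD, where 2 members showed it, and for 5.15% in KO against V, where 1 did. edgeR called 0 members in KO against HxD (0.0068% of all genes, 1 gene), in KO against V (0.0204%, 3 genes) and in HxD against V (0%, 0 genes). DESeq2 called 99, 69 and 109 genes and limma voom 1, 2 and 0, with 0 members each time. Groups apart in either direction made up 9.33% of all genes in KO against HxD, 10.3% in KO against V and 7.99% in HxD against V, where 0 members showed it. The counts at an unadjusted p under 0.05 by edgeR were also 0 members, beside 4.67%, 4.1% and 5.07% of all genes (745 genes in HxD against V).

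Ratios of reads within a library do not depend on scaling between libraries, and they are given as descriptions without a test. Ezh1 reads were 33.92, 25.91 and 30.89% of Ezh2 reads in WT, 24.39, 28.68 and 19.89% in KO, 25.58, 17.55 and 28.47% in HxD, and 38.37, 25.41 and 36.33% in V. Ezh2 thus gave most of the catalytic subunit reads in every library, and the genotypes overlapped. Rbbp7 reads were 103.8% of Rbbp4 reads in WT 1 and 61.03 to 70.3% in the other WT libraries, against 60.56 to 78.88% in KO, 44.18 to 67.37% in HxD and 59.83 to 67.25% in V. WT 1 was the library in which Rbbp7 reads outnumbered Rbbp4 reads.

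Relative to Suz12, reads of Ezh2, Rbbp4 and Mtf2 were higher in all V libraries than in all WT libraries, in 3 of 8 ratios to Suz12 that were formed. The same held for 13.3% of the other genes tested. Ezh2 reads were 50.81 to 64.29% of Suz12 reads in WT and 71.05 to 79.55% in V, groups that did not overlap. In KO they were 59.16 to 82.5% and in HxD 57.44 to 86.04%, both overlapping WT. Rbbp4 reads were 144.5 to 156.1% of Suz12 reads in WT and 174.2 to 225.2% in V, again without overlap. KO, at 158.3 to 163.6%, also lay wholly above WT, as did 12.9% of the other genes tested, whereas HxD (142.4 to 204.1%) overlapped it. Mtf2 reads were 77.31 to 111.5% in WT and 112.4 to 132.3% in V. Suz12 is the denominator of each, and V 1 and V 3 held its lowest levels together with HxD 3.

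**Figure D4:**
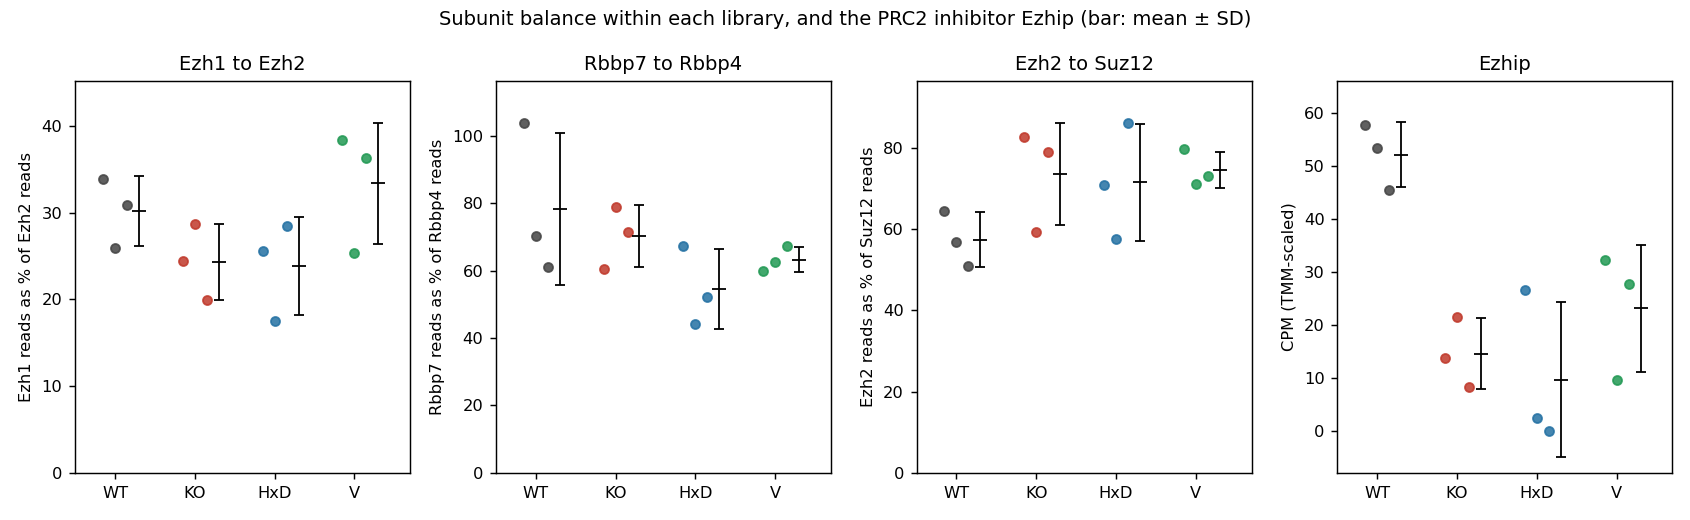
The first 3 panels give reads of Ezh1 as a percentage of Ezh2, Rbbp7 of Rbbp4 and Ezh2 of Suz12 within each library, and the last gives Ezhip in TMM-scaled CPM; points are libraries and bars the mean ± SD of 3. WT libraries of Ezhip (45.4 to 57.6 CPM) lie above all mutant libraries (0 to 32.2), while WT overlaps KO and HxD in each ratio. Of all genes tested, 8.15% lie wholly below WT in KO, 7.22% in HxD and 6.06% in V.

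Among the other accessory factors, the widest gap between genotypes was that of Ezhip, listed in the table as AU022751, an X-linked germ cell protein that inhibits EZH2. It read 57.6, 53.3 and 45.4 CPM in WT, 13.8, 21.5 and 8.25 in KO, 26.5, 2.31 and 0 in HxD, and 32.2, 9.45 and 27.7 in V. Every WT library lay above every mutant library, and the count of 0 in HxD 3 allows up to 0.194 CPM (3 counts, counting error only). Of all genes tested, 8.15% were lower in all KO libraries than in all WT libraries, 7.22% in HxD and 6.06% in V. These comparisons share the WT libraries, and the share with all 3 mutants below WT was not computed. The log2 fold change was −1.845 in KO (SE 0.81), −2.43 in HxD (SE 0.83) and −1.175 in V (SE 0.80). The unadjusted p was 0.0305, 0.00644 and 0.151 in that order, and the adjusted p 0.539, 0.436 and 0.873 by edgeR. None of the 3 passed the test, and nor did that of any difference (adjusted p = 0.706 by edgeR).

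The verdict on Ezhip depended on the setting. The KO difference passed with limma voom and without the expression filter, in 2 of 14 other settings, with a smallest adjusted p of 0.0162. The HxD difference passed in 3 of 14: without the filter, with a replicate block, and without HxD replicate 1, where the estimates of all settings ran from −5.54 to −1.84. The V difference passed in 0 of 14 (smallest adjusted p = 0.12). The direction held in all 14 for each mutant. Of the other 4 factors in this list, Lcor, a PRC2.1-associated cofactor, averaged 168 ± 21.7 CPM in WT, 132 ± 31.9 in KO, 139 ± 22.4 in HxD and 132 ± 29.9 in V (adjusted p for any difference 0.948 by edgeR). The summed germ cell markers were likewise lower in each mutant group than in WT, and their part in the Ezhip values was not tested.

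Genes that work with or against PRC2 gave no call by the adjusted test either. As background, unadjusted p-values under 0.05 marked 3.75% of all genes as higher and 4.54% as lower in KO than in WT, 3.42% and 4.82% in HxD, and 2.85% and 3.2% in V. Over 9 lists, 172 genes were in the table and 127 were tested. edgeR called 0 of the 127 in each of the 6 comparisons and in the test of any difference. Against WT, 11 had an unadjusted p under 0.05 in KO (8.66%, beside 8.3% of all genes), 13 in HxD (10.2%, beside 8.24%) and 10 in V (7.87%, beside 6.05%). DESeq2 called 1, 1 and 0 of them, Cdx2 in KO and in HxD, and limma voom 2, 0 and 0, AU022751 (Ezhip) and Pcgf2 in KO. Lists are described by the 2 members with the smallest p for any difference, and Pcgf2, Cdx2, Gata6 and Lhx1 were named after their values were seen.

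PRC1, the second Polycomb complex, ubiquitinates histone H2A and binds the PRC2 mark. Of its 23 tested genes, unadjusted p-values under 0.05 marked 2 as higher and 1 as lower in KO, 0 and 3 in HxD, and 1 and 1 in V. edgeR called 0 after adjustment. The median log2 fold changes were 0.08, −0.10 and −0.10, beside the values for all genes given above. Kdm2b, which directs a PRC1 form to unmethylated CpG-rich DNA, averaged 205 ± 57.3 CPM in WT, 165.0 ± 16.8 in KO, 135.0 ± 11.9 in HxD and 139 ± 23.4 in V (adjusted p for any difference 0.674 by edgeR). Bcor, its partner in the same form, averaged 96.6 ± 10.3 CPM in WT against 60.4 ± 9.18, 54.8 ± 26.3 and 67.9 ± 14.46 in the mutants (adjusted p = 0.739 by edgeR). Both had their highest mean in WT, with neither past adjustment. Pcgf2, a subunit that defines canonical PRC1, averaged 37.4 ± 12.4 CPM in WT, 71.4 ± 7.23 in KO, 49.9 ± 2.08 in HxD and 53.5 ± 23.2 in V. Its KO difference had an adjusted p of 0.294 by edgeR.

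Enzymes that oppose or border the mark gave 0 calls by edgeR in each list. The H3K27 demethylases Kdm6a, Kdm6b and Uty had 0 of 3 genes at an unadjusted p under 0.05 against WT. Uty, the Y-linked relative, averaged 23.0 ± 7.26 CPM in WT, 19.4 ± 7.64 in KO, 41.5 ± 4.14 in HxD and 27.4 ± 15.4 in V (adjusted p = 0.837 by edgeR). Kdm6a, its X-linked counterpart, averaged 57.8, 62.3, 48.7 and 53.8 CPM in the same order. The H2A deubiquitinase genes, Bap1 and the Asxl family, had 0 of 4 at that level, with Bap1 at 187, 189, 209 and 179.7 CPM and Asxl1 at 262, 218, 251 and 244.

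Of the 12 genes of the MLL/COMPASS complexes, which methylate lysine 4 of histone H3, 1 was lower at an unadjusted p under 0.05 in KO and 1 in HxD. Both were Kmt2c, an enhancer methyltransferase, at 362 ± 44.0 CPM in WT, 254 ± 16.5 in KO, 262 ± 30.4 in HxD and 325 ± 89.97 in V (adjusted p for any difference 0.688 by edgeR). Wdr5, a shared core subunit, averaged 301, 259.7, 254 and 238 CPM. Among the 5 methyltransferases of H3 lysine 36, a mark that hinders PRC2, 1 was lower in V at that level: Whsc1 (Nsd2), at 500.4 ± 46.1 CPM in WT and 369 ± 78.5 in V (adjusted p = 0.723 by edgeR). Whsc1l1 (Nsd3) averaged 73.9, 88.8, 55.0 and 83.1 CPM in WT, KO, HxD and V (adjusted p for any difference 0.763 by edgeR).

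Because RBBP4 and RBBP7 serve other complexes too, 18 genes of NuRD, SIN3, CAF-1, HAT1 and NURF were examined. By the same unadjusted measure, 3 of them were higher and 1 lower in KO, 3 and 0 in HxD, and 2 and 1 in V, with 0 calls by edgeR. Their median log2 fold changes were 0.115, 0.04 and 0.17. Hdac1, a deacetylase of NuRD and SIN3, averaged 120.1 ± 25.5 CPM in WT, 175 ± 30.5 in KO, 173 ± 38.8 in HxD and 150.1 ± 14.4 in V (adjusted p for any difference 0.786 by edgeR). Smarca1, the ATPase of NURF, had no count in 8 libraries, among them all of WT and HxD, and averaged 1.14 CPM in KO and 3.98 in V. It thus passed the filter through KO and V libraries alone, and against WT it could only be higher.

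Developmental genes known as PRC2 targets were nearly silent. Of 82 in the table, 24 had no count in any library, 21 had counts but did not pass the filter, and 37 were tested. The number with a count per library was 18 to 30 in WT, 23 to 36 in KO, 21 to 27 in HxD and 20 to 39 in V. The lowest was in WT 3, the library with the fewest genes detected (11529). The highest was in V 2, the library with the most (15715). The part of gene detection per library in these numbers was not tested. A typical (median) target stood at 0 CPM in every library. Their summed level ran from 210.9 to 352.8 CPM over the 12 libraries. Lhx1, a regulator of head and kidney development, gave a large part of it, averaging 117, 124, 105.0 and 104 CPM in WT, KO, HxD and V. edgeR called 0 targets in any comparison.

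At an unadjusted p under 0.05, 2 targets were higher in KO than in WT, 3 in HxD and 2 in V, and 0 were lower, but a gene near 0 in WT has little room to be lower. Gata6 was among them in each mutant, at 0 CPM in WT and averaging 1.04, 1.68 and 1.92 CPM in KO, HxD and V. It had no count in 6 libraries, among them all of WT. Gata6 thus passed the filter through mutant libraries alone, and against the shared WT libraries it could only be higher. Over the 37 tested, the median log2 fold change was 0.23, 0.493 and 0.684, with many of these genes near 0 CPM. Over all genes tested it was 0.00257, −0.0209 and 0.0131. Targets with no count in WT passed the filter through mutant libraries alone. The medians and the signs of the estimates carry that selection and do not show a rise of the targets. Estimates were positive for 22, 22 and 21 targets and negative for 15, 14 and 16. Sox9, a transcription factor of Sertoli cells, had no count in any WT or HxD library and averaged 0.783 CPM in KO and 4.19 in V (adjusted p for any difference 0.696 by edgeR). The Sertoli marker sum ran from 171.5 to 482.2 CPM in V and from 176.8 to 319.6 in WT, and its part in the Sox9 values was not tested. Cdkn2a, a senescence-associated cell cycle inhibitor and classic Polycomb target, averaged 23.4 ± 2.23 CPM in WT, 27.5 ± 12.1 in KO, 46.3 ± 6.29 in HxD and 34.1 ± 15.1 in V. Its adjusted p for any difference was 0.83 by edgeR. Cdx2, a trunk and gut regulator, averaged 0.030 CPM in WT, 3.51 in KO, 4.59 in HxD and 0.717 in V, with edgeR adjusted p = 0.503 in KO and 0.53 in HxD. These levels lie near those of single reads in WT, where Cdx2 reached at most 0.091 CPM.

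Since Ezh2, Eed and Suz12 are known to follow the cell cycle, 20 proliferation genes were set beside them. Their summed level was 6552 to 8367 CPM in WT, 6623 to 8062 in KO, 6944 to 7765 in HxD and 6706 to 7486 in V, so the genotypes overlapped. edgeR called 0 of 20. Counts at an unadjusted p under 0.05 were 0 in KO and, in HxD and in V alike, 1 up and 1 down. In HxD these were Ccne1, a G1/S cyclin, at 107.5 ± 2.995 CPM against 64.4 ± 24.4 in WT, and Ccnb1, a mitotic cyclin, at 202 ± 30.1 against 270.5 ± 7.96. The adjusted p-values for any difference were 0.811 and 0.845 by edgeR.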

How the data were processed

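The table that the authors deposited holds raw read counts by gene symbol, in 12 columns that carry a sample's name. Of the 13 samples in the labels, WT 4 was not analysed here, and 1 column with no sample name was not used. The submitters' processing notes name featureCounts 2.0.3, STAR 2.7.10b, SAMtools 1.9, Trim Galore 0.6.7 and FastQC. Those notes name both GRCm39 and mm10. Annotation and strand setting were not given in the sources used here, so reads of overlapping genes cannot be separated. Per the labels' protocols, mRNA was captured with oligo-dT.

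Counts were analysed in R 4.3.3 with edgeR 4.0.16: filterByExpr (minimum count 10), TMM scaling and a two-sided quasi-likelihood F-test in 1 fit of 12 libraries with genotype as the term. Benjamini-Hochberg adjustment covered all 14702 genes tested, with a threshold of 0.05. The common biological coefficient of variation was 0.932. DESeq2 1.42.0, limma 3.58.1 (voom with quality weights), RLE scaling, other filters, fits of 2 genotypes, a replicate block and leaving out libraries were alternatives. WT 3 and V 3 were left out together because they stood apart in earlier work on these data. The tests were tested on simulated data. Lengths came from GENCODE M21 and promoters from RefSeq (GRCm38.p6). No 2 libraries held identical counts. Figures were drawn with matplotlib 3.10.9.

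The members and gene lists were chosen with earlier results of these data known. The text names all members, Tet1 and, from each list, called genes or else the 2 with the smallest p for any difference among genotypes. Older symbols in the table were matched through RefSeq synonyms.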

Additional observations from a re-analysis of the deposited data

How the results depend on the processing

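The 30 member differences against WT were refitted 420 times, and 389 refits kept the direction and the side of the threshold. In 31 the sign changed, in 14 of the 30 values, and in 0 did a member pass the test. The values whose sign changed ran from 0.00354 (Eed in HxD) to 0.221 (Phf19 in HxD) in size, and the cause was not tested.

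With WT 3 and V 3 left out, the log2 fold change became −0.0196 for Eed and −0.195 for Phf19 in KO, −0.121 for Eed and −0.145 for Phf19 in HxD, and −0.132 for Aebp2 and −0.0807 for Mtf2 in V. With limma voom it became −0.118 for Phf19 in KO and −0.0971 for Eed in HxD, and with the replicate block −0.0131 for Aebp2 in V. Leaving out 1 library at a time gave ranges that crossed 0. In KO these were −0.0195 to 0.211 for Eed, −0.183 to 0.0149 for Rbbp4 and −0.195 to 0.702 for Phf19. In HxD they were −0.222 to 0.1 for Ezh1, −0.169 to 0.126 for Eed, −0.198 to 0.085 for Suz12, −0.0236 to 0.174 for Rbbp4, −0.342 to 0.17 for Aebp2, −0.145 to 0.751 for Phf19 and −0.0914 to 0.152 for Tet1. In V they were −0.0453 to 0.141 for Ezh2, −0.0287 to 0.169 for Rbbp4, −0.133 to 0.199 for Aebp2, −0.0398 to 0.164 for Mtf2 and −0.48 to 0.417 for Phf19. Without TMM scaling the Rbbp4 mean in KO was 511.4 CPM, beside 505.7 with it.

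Counts of all genes called by edgeR moved far more. For KO, HxD and V against WT (32, 5 and 0 genes), DESeq2 gave 212, 213 and 84, limma voom 124, 3 and 9, no filter 148, 67 and 32, a mean of at least 5 CPM 14, 1 and 0, fits of 2 genotypes 12, 2 and 0, and leaving out WT 3 and V 3 gave 11, 2 and 0. For KO against HxD, KO against V and HxD against V (1, 3 and 0), DESeq2 gave 99, 69 and 109, no filter 8, 21 and 5, a mean of at least 5 CPM 1, 1 and 0, and fits of 2 genotypes or without WT 3 and V 3 gave 1, 0 and 0. For any difference (11), RLE scaling gave 19, DESeq2 111, limma voom 37, no filter 162, a mean of at least 5 CPM 3, and leaving out WT 3 and V 3 gave 3. Leaving out 1 library gave 15 to 95 in KO, 1 to 47 in HxD and 0 to 10 in V against WT, 1 to 14 in KO against HxD, 2 to 18 in KO against V, 0 to 11 in HxD against V and 21 to 95 for any difference. The highest values came without WT 2 (95 and 10), HxD 1 (47, 14 and 11), V 2 (18) and V 1 (95).

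Whether the replicate numbers of the labels pair the libraries was not settled. Deviations of the 18 same-numbered pairs correlated at −0.0647 to 0.0879, with 0 over 0.1, beside −0.0987 to 0.113 for the other pairs. Of 12 libraries, 7 lay closest to their own number. With 3 libraries per genotype, these values are too few to decide it. With the replicate block, the counts were 104, 45 and 8 for KO, HxD and V against WT, 8, 16 and 2 between mutants in the order above, and 112 for any difference. Of 18 other pathway genes named by the rule, 340 refits of the test of any difference and its counterparts gave 3 calls, all of Ezhip. Most developmental targets had few or no counts. HxD 1, with 29641963 counts in total, had 21 targets with a count, and V 2, with 22238389, had 39. The part of depth in their detection was not tested. Phf19 had 539 to 1981 counts per library, so its spread in WT is not one of counting error alone.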
